A study of Mus musculus with 6 samples.

Results

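A set of integrin subunits and CD44, the cell surface receptor for hyaluronan, were followed through regenerating mouse liver in which hepatocytes lacked one of the enzymes of O-GlcNAc cycling. The genes are the integrin alpha subunits Itga1, Itga5, Itga6, Itga9 and Itgav, the beta subunits Itgb1, Itgb3 and Itgb5, and Cd44. They were taken by symbol, and all 9 of the 9 listed genes had a row among the 12027 rows of the deposited count table. The samples were whole livers of male C57BL/6 mice, 8 weeks old, taken after partial hepatectomy (PHX), surgery that takes out part of the liver and lets the remainder regrow. OGT attaches the sugar O-GlcNAc to proteins and OGA removes it. The groups were OGA-KO (genotype OGA-/-) and OGA control (OGAfl/fl) at 14 days and again at 28 days, and OGT-KO (OGT-/y) and OGT control (OGTfl/y) at 28 days. Both deletions are described by the submitters as specific to hepatocytes, and how the deletion was driven is not given in the sources used here. All 6 groups had undergone PHX, so no liver without surgery entered any comparison. Each group was 1 library made from the pooled RNA of 3 mice, and the spread between mice of a group is not known.

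Integrins are receptors made of 1 alpha and 1 beta chain that hold cells to the matrix and signal inward through adaptor proteins and kinases. ITGB1 pairs with many alpha chains: with ITGA1 it binds collagen, with ITGA5 fibronectin, with ITGA6 laminin, and with ITGA9 tenascin C and osteopontin. ITGAV pairs with ITGB1, ITGB3 or ITGB5, binds matrix proteins through the Arg-Gly-Asp motif, and is known as an activator of latent TGF-beta. CD44 binds hyaluronan and links to the actin skeleton through ezrin, radixin and moesin. In normal liver, hepatocytes carry few integrins while bile duct, stellate, endothelial and immune cells carry more kinds.

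Library totals ranged from 20433100 to 29327722 counts. Levels are given as CPM, counts scaled to the library size after correction by TMM (trimmed mean of M-values), a correction for differences in RNA composition. The OGT-KO library stood apart from the other libraries in that scaling, with a factor of 1.37 where the other factors lay between 0.90 and 1.06. Ratios between 2 libraries are log2 ratios of CPM with a prior count of 2, and the range after a ratio is its 95% counting interval (Clopper-Pearson). Such intervals leave out differences between mice and library preparation. The targeted Oga transcript had 282 counts in OGA-KO and 1525 in OGA control at 14 days, and 317 and 1760 at 28 days. Ogt had 1205 counts in OGT-KO and 1339 in OGT control (log2 -0.43, and -0.06 by library totals), so its total count does not check the OGT-KO label. A gene total also takes in exons that were not removed and RNA of cells in which the gene was intact.

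Levels of different genes were ranked after division of their counts by the length of their annotated exons. Percents of the counts of another gene, given further below, lack that division and are read only as changes between libraries. On that scale, the median over the 3 control libraries was highest for Itgb1, at 40.9 CPM per kb, followed by Itgb5 at 21.9 and Itga5 at 8.63. Itgav (2.25), Itga9 (2.03) and Itga1 (1.52 CPM per kb) formed a middle group. Cd44 (0.575), Itgb3 (0.477) and Itga6 (0.235 CPM per kb) were the lowest of the 9 in the control median. In OGT-KO, Itgb1 (86.6), Itgb5 (32.9) and Itga5 (14.6 CPM per kb) kept the top places. Cd44 came next at 11.01 CPM per kb, and Itga6 stood at 4.44, above Itgb3 at 3.44 and Itga1 at 3.14.

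**Figure D1:**
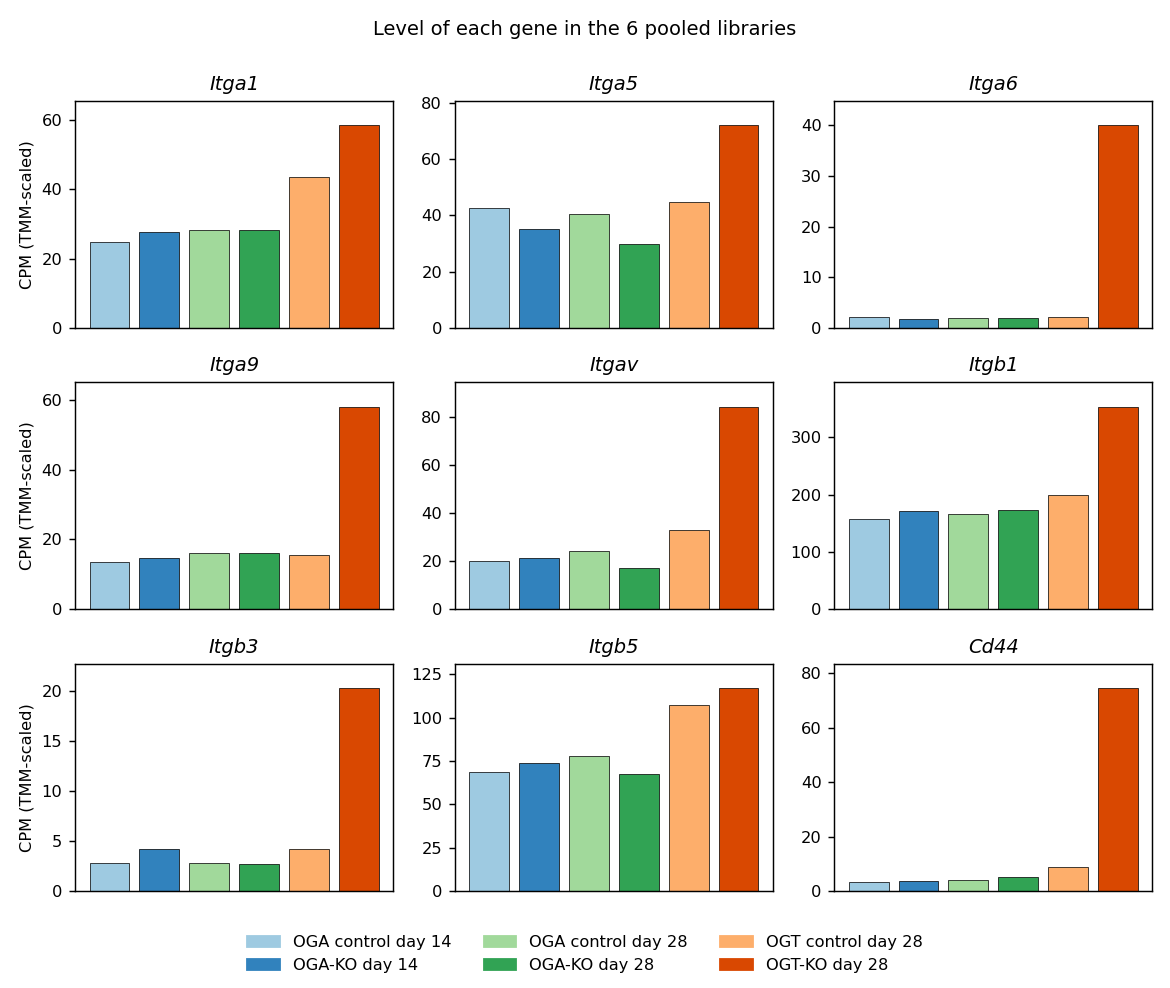
Level of each of the 9 genes in the 6 pooled libraries, as CPM with TMM scaling on a linear axis that starts at 0, with 1 bar per library and no error bar because each group is 1 library. OGT-KO is the highest bar in each panel, from 117 CPM against 107 in OGT control for Itgb5 to 40.0 against 2.12 CPM for Itga6.

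The OGT pair at 28 days compares liver labelled as lacking OGT in hepatocytes with its floxed control. Of the 9 genes, 8 rose and none fell in OGT-KO by edgeR's quasi-likelihood test, where 26.1% of the 12026 genes tested rose and 26.6% fell. The exception was Itgb5. By size, Itga6, Cd44, Itgb3, Itga9 and Itgav were at least 2-fold higher with at least 1 CPM, 5 of 9 against 16.4% of all genes with that level. The median log2 ratio of the 9 genes was 1.35, while that of all genes was 0.00. In whole liver, a change in the number of cells of one type and a change in RNA per cell cannot be told apart.

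The edgeR test was fitted on all 6 libraries, with the line, the day and each knockout as terms, and left 1 residual degree of freedom. Its spread came from the OGA libraries, and the OGT pair was taken to have the same spread. Scaling by library totals instead of TMM raised the ratios of the OGT pair by 0.37 (log2) at the median of all genes and moved the share of risen among called genes from 49.5% to 74.1%.

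Among the alpha subunits, the laminin receptor chain Itga6 (ENSMUSG00000027111) was the furthest from control. It had 1.67 CPM in OGA-KO and 2.16 in OGA control at 14 days, 2.02 and 1.91 at 28 days, 2.12 in OGT control and 40.0 in OGT-KO. The first 5 of these values rest on 45 to 53 counts each and no neighbours among them in order of level differed beyond counting error, whereas OGT-KO had 1118 counts. The log2 ratio in the OGT pair was 4.19 (3.82 to 4.68), an 18.2-fold difference, and the gene rose by edgeR (adjusted p = 0.000192). The chain ITGB4, the other partner of ITGA6, had no row for its gene Itgb4 and was not analysed here. Gene counts do not separate the splice forms of Itga6 or of Cd44.

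Itga9 (ENSMUSG00000039115), whose product binds tenascin C and osteopontin, had 14.8 CPM in OGA-KO and 13.4 in OGA control at 14 days, 16.1 in each of both at 28 days, 15.6 in OGT control and 58.0 in OGT-KO. The 5 libraries other than OGT-KO lay within 1.20-fold of each other. It rose in OGT-KO with a log2 ratio of 1.89 (1.73 to 2.06, edgeR adjusted p = 0.000354). Itgav (ENSMUSG00000027087), the chain shared by the Arg-Gly-Asp receptors, had 21.2 and 20.1 CPM in OGA-KO and control at 14 days, 17.2 and 24.2 at 28 days, 33.0 in OGT control and 84.3 in OGT-KO. OGT control was thus the second highest library for Itgav, and OGT-KO was 2.55-fold above it (log2 1.35, 1.23 to 1.47, edgeR adjusted p = 0.00332).

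The fibronectin receptor chain Itga5 (ENSMUSG00000000555) had 35.0 and 42.6 CPM in OGA-KO and control at 14 days, 30.01 and 40.5 at 28 days, 44.8 in OGT control and 72.1 in OGT-KO. It rose in OGT-KO by a log2 ratio of 0.69 (0.58 to 0.80, edgeR adjusted p = 0.00421), a call that DESeq2 did not make (adjusted p = 0.0704). The collagen receptor chain Itga1 (ENSMUSG00000042284) had 27.8 and 24.7 CPM at 14 days, 28.2 in each of both at 28 days, 43.5 in OGT control and 58.4 in OGT-KO. Both OGT libraries were above all 4 OGA libraries for Itga1. Its log2 ratio in the OGT pair, 0.42 (0.31 to 0.54, edgeR adjusted p = 0.0246), was smaller than the 0.63 (0.49 to 0.77) between OGT control and OGA control at 28 days. The call was lost without the line term (edgeR adjusted p = 0.137) and with DESeq2 (adjusted p = 0.386).

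Of the beta subunits, Itgb1 (ENSMUSG00000025809), the common partner, had 172 and 157 CPM in OGA-KO and control at 14 days, 173 and 167 at 28 days, 199 in OGT control and 353 in OGT-KO. It rose in OGT-KO with a log2 ratio of 0.83 (0.78 to 0.88, edgeR adjusted p = 0.00201), and the other 5 libraries lay within 1.27-fold of each other. Itgb3 (ENSMUSG00000020689), a partner of ITGAV and the platelet fibrinogen receptor chain, had 4.18 and 2.82 CPM at 14 days, 2.67 and 2.75 at 28 days, 4.16 in OGT control and 20.3 in OGT-KO. From 96 counts in OGT control it reached 566 in OGT-KO, and it rose with a log2 ratio of 2.26 (1.97 to 2.61, edgeR adjusted p = 0.00139).

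Itgb5 (ENSMUSG00000022817), the other ITGAV partner and the most abundant of these after Itgb1, had 73.6 and 68.8 CPM in OGA-KO and control at 14 days, 67.5 and 77.7 at 28 days, 107 in OGT control and 117 in OGT-KO. The 2 OGT libraries were the highest and close to each other. Its log2 ratio in the OGT pair was 0.13 (0.05 to 0.20, edgeR adjusted p = 0.451), against 0.46 (0.38 to 0.55) between the control lines. By library totals the fitted ratio was 0.50 with an edgeR adjusted p of 0.0233.

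Cd44 (ENSMUSG00000005087) had 3.77 CPM in OGA-KO and 3.35 in OGA control at 14 days, 5.18 and 3.90 at 28 days, 8.75 in OGT control and 74.6 in OGT-KO. OGT-KO was highest by far and OGT control second, apart from the 4 OGA libraries. The gene went from 202 counts in OGT control to 2083 in OGT-KO and rose with a log2 ratio of 3.08 (2.88 to 3.31, edgeR adjusted p = 0.000174), an 8.46-fold difference. OGT control itself was above OGA control at 28 days by a log2 ratio of 1.15 (0.82 to 1.53). Cd44 was the 1 gene of the 9 past the 2-fold rule between the control lines, where 4.72% of genes passed as higher, 5.72% as lower and 10.4% in all.

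**Figure D2:**
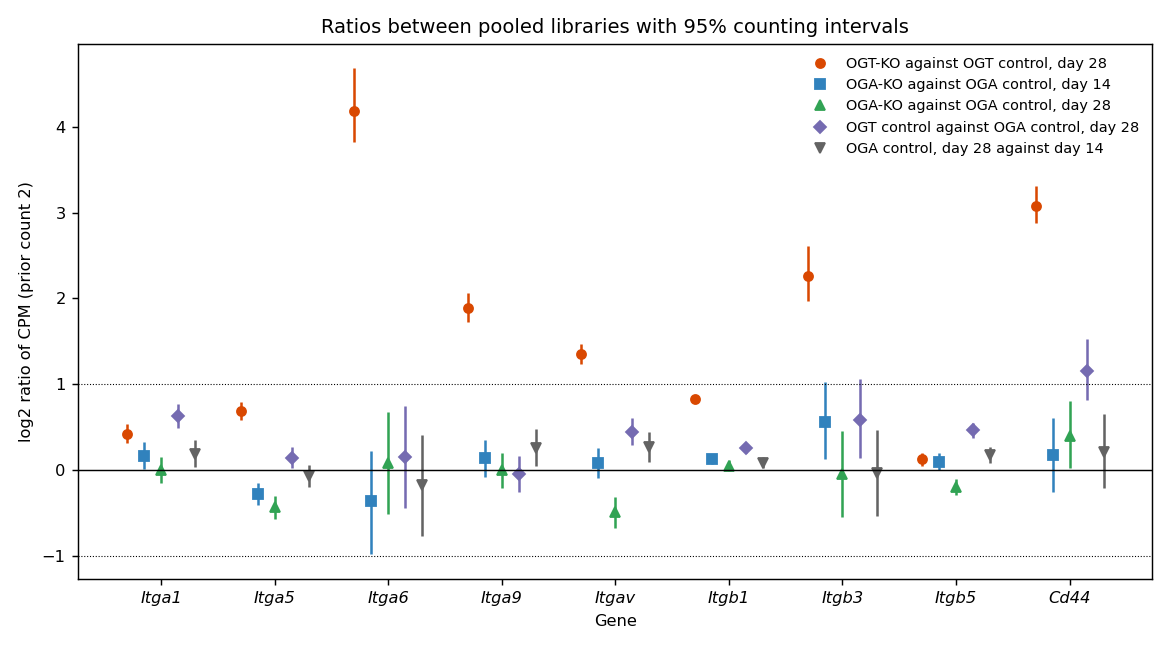
Log2 ratios of CPM (prior count 2) of the 9 genes in the 3 knockout pairs and in 2 comparisons of control libraries, with vertical lines for the 95% counting interval and dotted lines at 2-fold. The OGT pair reaches 4.19 for Itga6 and 3.08 for Cd44, and every OGA-KO ratio lies between -0.49 and 0.56.

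The members did not rise in proportion. Ratios of 2 genes within the same library do not depend on how libraries are scaled, and the change of such a ratio between libraries is free of gene length. Itga6 counts were 1.07% of Itgb1 counts in OGT control and 11.3% in OGT-KO, a log2 change of 3.41 (2.99 to 3.83, a 95% Wald interval from the 4 counts). Relative to Itgb1, Itga9 was higher by 1.07 (0.90 to 1.24) and Itgav by 0.53 (0.40 to 0.65), while Itga1 was lower (-0.40, -0.53 to -0.28) and Itga5 slightly so (-0.14, -0.26 to -0.02).

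The same held for the partners of ITGAV. Itgb5 counts were 325% of Itgav counts in OGT control and 139% in OGT-KO (log2 change -1.23, -1.37 to -1.09). Across the 4 OGA libraries this share lay between 321% and 392%. Itgb3 counts were 12.6% of Itgav counts in OGT control and 24.0% in OGT-KO (log2 change 0.93, 0.60 to 1.27), with 11.4% to 19.7% in the OGA libraries. Against each other, Itgb3 gained on Itgb5 by a log2 of 2.16 (1.84 to 2.48), from 3.88% to 17.3% of its counts.

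**Figure D3:**
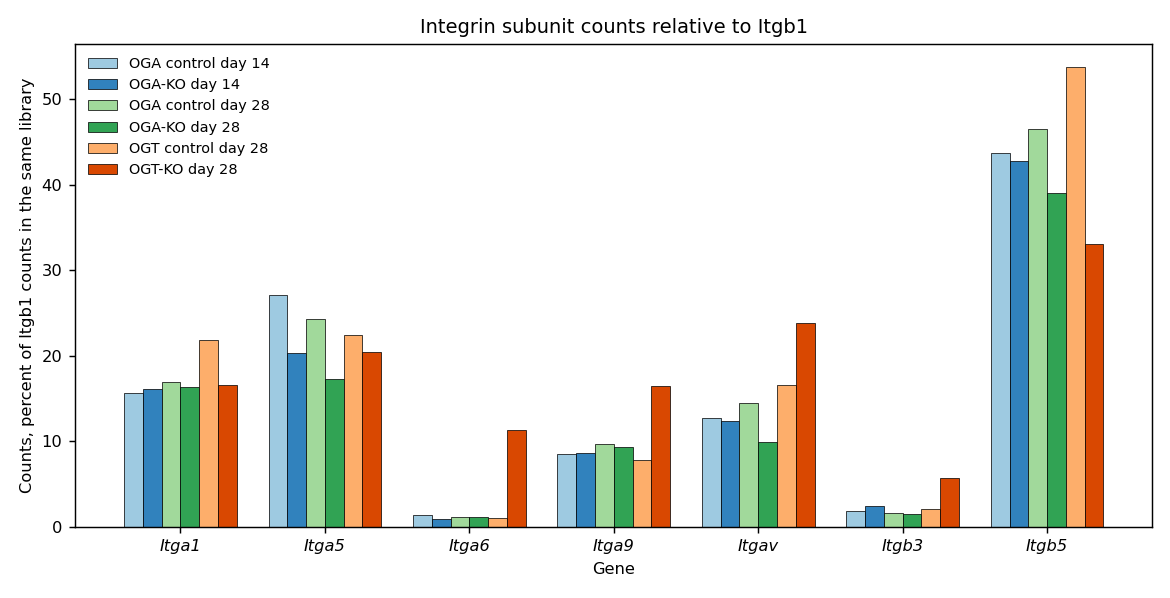
Counts of 7 integrin subunits as a percent of Itgb1 counts in the same library, with 1 bar per library on an axis that starts at 0; heights of different genes are not comparable because counts grow with transcript length. Itga6 stands at 11.3% in OGT-KO and between 0.968% and 1.38% in the other libraries, and Itgb5 is lowest in OGT-KO at 33.1%.

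RefSeq promoters (build GRCm38.p6) were at hand for 7 of the 9 genes, all but Itga6 and Itgb3. The 250 bases before the annotated start were searched on both strands for motifs of factors linked to matrix and growth signals. AP-1 (TGANTCA) was in 0 of the 7 windows and in 6.87% of the 27025 windows of all genes, and the CArG box of SRF was in 0 of 7 and 1.4%. The TEAD motif (GGAATG) was in 1 of 7 and 12.6%, and the SP1 motif (GGGCGG) in 3 of 7 and 32.9%. Shown are Cd44, with the largest ratio among the 7, Itgb1, the shared partner and the holder of the TEAD match, and Itgb5, which did not pass the test. Capitals mark motif matches on either strand. The windows are chr2:102901666-102901915 (minus strand), chr8:128685404-128685653 (plus strand) and chr16:33829415-33829664 (plus strand).
Cd44: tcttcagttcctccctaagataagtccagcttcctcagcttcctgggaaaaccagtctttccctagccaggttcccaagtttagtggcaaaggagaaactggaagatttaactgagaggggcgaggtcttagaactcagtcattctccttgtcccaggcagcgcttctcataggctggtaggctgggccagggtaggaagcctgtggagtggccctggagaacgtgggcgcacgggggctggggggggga
Itgb1: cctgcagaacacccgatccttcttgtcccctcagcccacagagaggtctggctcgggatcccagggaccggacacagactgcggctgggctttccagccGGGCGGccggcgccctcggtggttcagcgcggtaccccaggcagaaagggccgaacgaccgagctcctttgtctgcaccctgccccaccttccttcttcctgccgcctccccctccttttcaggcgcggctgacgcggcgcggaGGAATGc
Itgb5: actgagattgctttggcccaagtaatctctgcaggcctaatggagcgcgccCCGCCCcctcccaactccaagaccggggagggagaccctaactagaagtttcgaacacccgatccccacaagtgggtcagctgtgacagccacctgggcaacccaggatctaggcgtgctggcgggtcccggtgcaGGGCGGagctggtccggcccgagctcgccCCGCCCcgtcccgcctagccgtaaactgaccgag
The Itgb5 window holds SP1 matches that begin 199, 63 and 34 bases before the start, while the Itgb1 window holds an SP1 match at 151 and the TEAD match at 7 bases before it. Cd44 has no match and 5 CpG pairs, near the median of 6 over all windows, whereas Itgb1 has 21 and Itgb5 18. Letters in a window are a description and not evidence of binding.

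In OGA-KO no member passed the edgeR test, in which 0.0333% of all genes were called (0.0249% higher and 0.00832% lower). An unadjusted edgeR p under 0.05 was found for 1 of the 9 members and for 1560 of the 12026 genes tested. DESeq2 called 0 of the 7 members to which it gave an adjusted p. No member was 2-fold changed at either time, where 0.839% of genes differed by that much at 14 days (0.534% higher and 0.305% lower) and 2.57% at 28 days (1.7% higher and 0.869% lower). At 14 days the 9 log2 ratios ran from -0.36 (Itga6, -0.98 to 0.22) to 0.56 (Itgb3, 0.13 to 1.02), with a median of 0.13. At 28 days they ran from -0.49 (Itgav, -0.67 to -0.31) to 0.40 (Cd44, 0.02 to 0.80), with a median of 0.00.

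Itga5 was the member that stood lower than control beyond counting error at both times. Its log2 ratio was -0.28 (-0.41 to -0.15) at 14 days, on 947 against 1043 counts, and -0.43 (-0.57 to -0.30) at 28 days, on 742 against 1061. The mean effect over both times was -0.36 with an edgeR adjusted p of 0.26. Relative to Itgb1, its partner chain, Itga5 counts went from 27.1% in OGA control to 20.4% in OGA-KO at 14 days and from 24.3% to 17.3% at 28 days (log2 change -0.41, -0.55 to -0.27, and -0.49, -0.63 to -0.34). Itgav was close to control at 14 days (0.08, -0.10 to 0.26) and lower at 28 days, on 426 against 634 counts. The same library at 28 days held 143 CPM of 7 pancreas acinar markers, which summed to between 0.287 and 0.666 CPM in the other libraries, with 5 or 6 of the 7 at 0, and the part of that admixture in these ratios was not tested.

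Differences between control libraries give the scale of variation without a knockout. From 14 to 28 days in OGA control the 9 ratios lay between -0.17 and 0.27. None passed the 2-fold rule, which 0.927% of all genes passed (0.519% higher and 0.408% lower). Between OGT control and OGA control at 28 days the 9 ratios lay between -0.05 (Itga9) and 1.15 (Cd44). Their median was 0.45, where that of all genes with at least 1 CPM was 0.01. Line and any handling that differed between the OGA and OGT libraries cannot be told apart here. For Itga6, Cd44, Itgb3, Itga9 and Itgav the OGT-KO ratio was larger than either control difference, and for Itga5 and Itgb1 too. For Itga1 and Itgb5 it was not larger than the difference between the control lines.

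The effect of OGT-KO exceeded that of OGA-KO for 7 of the 9 members by edgeR's test of the difference, and it was below that of OGA-KO for none. Of all genes 21.4% were higher, 22.7% lower and 44.1% either. The difference of log2 effects was 4.38 for Itga6 (adjusted p = 0.000638), 2.79 for Cd44 (adjusted p = 0.000735) and 1.83 for Itga9 (adjusted p = 0.00113), all by edgeR. For Itgb3 it was 2.002 by edgeR (adjusted p = 0.00697), and DESeq2 gave an adjusted p of 0.0857. For Itga1 the difference was 0.34 (edgeR adjusted p = 0.0993), and for Itgb5 0.18 (adjusted p = 0.407). By library totals these 2 passed as well, at 0.72 (edgeR adjusted p = 0.00987) and 0.56 (edgeR adjusted p = 0.0368).

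The other integrin genes moved in the same direction in the OGT pair. Of 18 other subunits, 10 had a row, with a median log2 ratio of 1.72. By edgeR 8 of these rose and none fell, where 26.1% of all genes rose and 26.6% fell. Itga3, another laminin receptor chain, had 4863 counts in OGT-KO against 295 in control (log2 3.76, 3.60 to 3.94) and rose. The leukocyte chains Itgb2 (2.31), Itgal (1.73) and Itgax (1.59) and the lymphocyte and myeloid chain Itga4 (2.28) rose too. Itga8 (1.86), known from stellate cells, Itga10 (1.71) and the platelet chain Itga2b (1.04, on 104 against 41 counts) were also called. Itga2b at 3.72 CPM in OGT-KO was still below the 4 OGA libraries (4.24 to 5.25 CPM). The calls of Itga10, Itgax and Itga2b were lost without the line term (edgeR adjusted p = 0.0751, 0.111 and 0.777). Itga7 stood at 0.13 (-0.06 to 0.32) and Itgb7 at 0.64 (0.06 to 1.29), and neither passed.

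Matrix ligands of these receptors formed the list with the highest median among the pathway lists, at 2.85. Of 34 integrin ligand genes with a row, 28 rose and 3 fell by edgeR, where 26.1% of all genes rose and 26.6% fell. Nid1, which links laminin and collagen in basement membranes, was at 5.002, Col1a1 at 4.17, Col1a2 at 3.91, Ccn2 at 3.89, Fbn1 at 3.81 and the laminin chain Lama5 at 3.68. Ligands of ITGA9 and ITGA5 were among them: Tnc was at 3.07 and Spp1 (osteopontin) at 2.86, while Fn1, made in quantity by hepatocytes, rose by only 0.38. Among plasma ligands made by hepatocytes, Fn1 was thus called higher, Vtn (-0.79) and Fgg (-0.62) fell, and Fga (0.25) and Fgb (0.27) did not pass. Lama3 (-0.95) was the remaining gene that fell. Without the line term 27 ligand genes rose and 0 fell, and by library totals 31 rose and 1 fell. Of all 12026 genes tested, 1616 rose and 1419 fell without the line term, and 5334 rose and 1862 fell by library totals.

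Proteins on the inner side of the receptors were divided. Of 27 activators, adaptors and kinases with a row, 15 rose and 4 fell (median 0.77), where 26.1% of all genes rose and 26.6% fell. The numbers were 12 and 1 without the line term (1616 and 1419 of all 12026 genes), and 17 and 2 by library totals (5334 and 1862). The filamin gene Flna (2.67), the kinase gene Src (2.62), Fermt3 (2.23, the kindlin of blood cells), Parvb (1.77), Actn1 (1.45) and Tns1 (1.23) had the largest ratios. Core parts of adhesions in most cells were split. Ilk (0.00), Vcl (-0.18) and Fermt2 (-0.45) did not pass, while Tln1 (0.39), Ptk2 (0.43), Actn4 (0.77), Pxn (0.80), Lims1 (0.81) and Zyx (0.85) rose. The genes that fell were Lims2 (-1.23), Ptk2b (-0.74), Parva (-0.59) and Sharpin (-0.37). Of 8 linkers, sheddases and splicing regulators of CD44 with a row, 5 rose and 2 fell (4 and 0 without the line term, 6 and 1 by library totals). Ezr rose by 3.27 and Msn by 2.65, whereas Rdx, the member of that family typical of hepatocytes, fell by 0.72 on the log2 scale, a call lost without the line term (edgeR adjusted p = 0.169). Of the sheddases of CD44, Mmp14 (3.18), Adam10 (0.93) and Adam17 (0.64) rose, the last not without the line term (edgeR adjusted p = 0.0593). Mmp14 stood at 117 CPM in OGT-KO and 12.9 in OGT control, with 33.0 to 43.6 CPM in the OGA libraries. For Mmp14, OGT control was thus below OGA control at 28 days (log2 -1.39, -1.59 to -1.21).

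Genes that make, break down or bind hyaluronan were divided. Of 21 listed genes 13 had a row, and 6 rose and 6 fell (median -0.16), where 26.1% of all genes rose and 26.6% fell. Without the line term 3 rose and 3 fell (1616 and 1419 of all 12026 genes), and by library totals 6 rose and 4 fell (5334 and 1862). The other hyaluronan receptors were split, with Stab1 at 1.99 and Lyve1 at 1.89 rising and Stab2 (-0.69) falling. Hyal1, a lysosomal hyaluronidase, fell by 1.25 on the log2 scale, and the synthase gene Has3 was at -0.16 without passing. Among the inter-alpha-trypsin inhibitor chains that bind to hyaluronan, Itih1 fell (-1.93), while Itih3 (0.50) and Itih2 (1.05) rose, the last not without the line term (edgeR adjusted p = 0.4). OGT control was below the OGA libraries for Itih1 (353 CPM against 907 to 1028) and for Itih2 (617 CPM against 1065 to 1138). Hapln1, on 37 against 74 counts, was at -1.23 and was not called without the line term (edgeR adjusted p = 0.542). The synthase genes Has1 and Has2 had no row and were not analysed here.

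**Figure D4:**
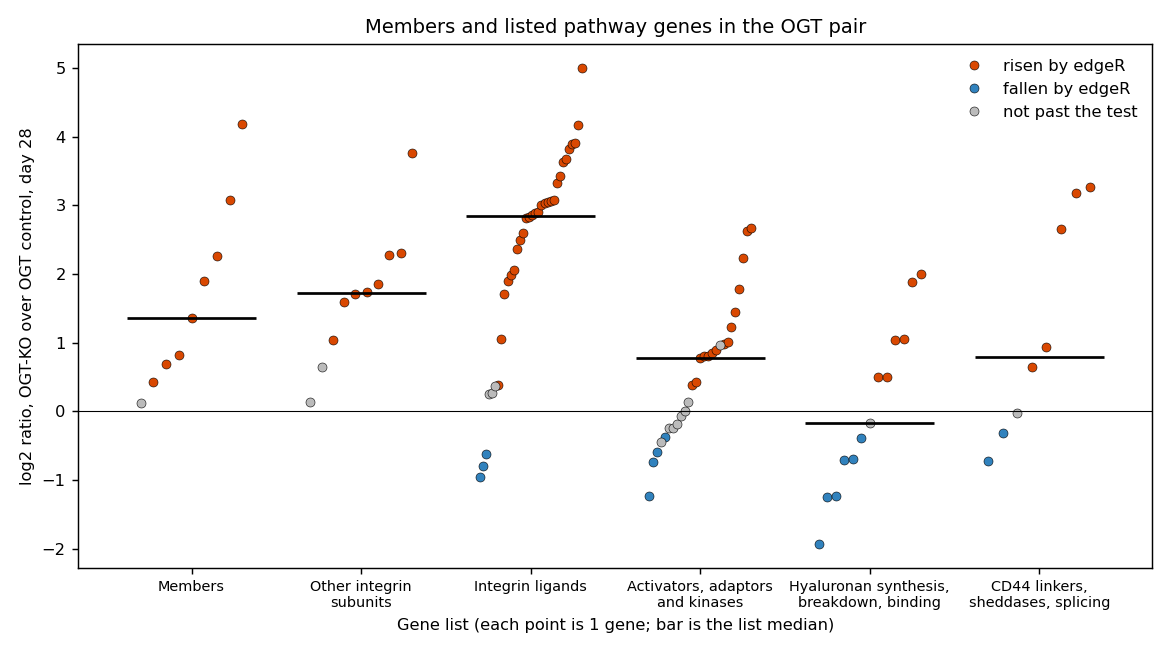
Log2 ratio of OGT-KO over OGT control at 28 days for each gene with a row in 6 lists, with colour for the edgeR call and a horizontal bar at the list median. The ligand list has its median at 2.85 and the hyaluronan list at -0.16, and 8 of the 9 members are called.

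Markers of stellate cells, macrophages and cholangiocytes moved with the members in the OGT pair, while endothelial markers were divided. By the same test 26.1% of all genes rose and 26.6% fell. All 13 stellate cell and fibroblast markers rose, among them Acta2 (log2 3.73), Lum (3.84) and Pdgfrb (2.55), and their summed level was 974 CPM in OGT-KO, 239 in OGT control and 155 to 191 in the OGA libraries. Of 13 macrophage markers 12 rose, with Lgals3 at 3.00, Lyz2 at 2.85 and C1qb at 2.46 (1687 CPM in OGT-KO, 426 in OGT control, 227 to 283 in the OGA libraries). Of 7 cholangiocyte markers with a row 6 rose, such as Cd24a (4.59), Krt7 (3.33) and Epcam (3.14), from a sum of 60.2 CPM in OGT control to 194, with 43.7 to 50.6 CPM in the OGA libraries. Of 12 endothelial markers 3 rose and 4 fell (335 against 313 CPM, and 379 to 426 CPM in the OGA libraries). Of 10 hepatocyte markers none rose and 7 fell, with Cyp2e1 at -3.72 and Ttr at -1.47, their sum going from 88270 CPM in OGT control to 55726 (92414 to 101531 CPM in the OGA libraries). None of these genes was at 0 in any library. Without the line term 11 stellate, 10 macrophage and 5 cholangiocyte markers rose, 4 hepatocyte markers fell, and 0 endothelial markers rose and 2 fell. By library totals the numbers risen were 13, 12 and 7 for the first 3 lists, 1 hepatocyte marker rose and 5 fell, and 7 endothelial markers rose and 1 fell. Of all 12026 genes tested, 1616 rose and 1419 fell without the line term, and 5334 rose and 1862 fell by library totals.

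Rarer cells were less well covered. The 3 neutrophil markers with a row, of 6 listed, rose, where 26.1% of all genes did. They summed to 19.0 CPM against 2.77 in OGT control (3.32 to 5.63 in the OGA libraries). S100a8 and S100a9 had only 7 and 5 counts in OGT control, against 122 and 75 in OGT-KO and 17 to 48 in the OGA libraries. Csf3r had 52 counts in OGT control and 334 in OGT-KO. Of 5 mesothelial markers 2 rose, with a sum of 15.1 against 4.12 CPM, but the OGA libraries held 7.07 to 15.3 CPM. Of 10 lymphocyte markers only Ptprc had a row, at 22.9 against 8.88 CPM (3.67 to 4.93 in the OGA libraries). None of 7 platelet markers had one. Platelets were followed only through the receptor chains Itga2b (log2 1.04) and Itgb3 (2.26), the latter also a partner of ITGAV. Without the line term 1 neutrophil and 1 mesothelial marker rose, and Ptprc did not pass (edgeR adjusted p = 0.0541). The part of all these cells in the ratios of the 9 genes was not tested.

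By the distance used here, few other genes lay close to Itga6, Cd44 and Itgb3, and many lay close to Itgb1 and Itgb5. Likeness was the root mean squared distance of centred log2 CPM over the 6 libraries. It was taken among the 9700 genes of at least 5 CPM on average, with predicted genes and clone names passed over. It is a description, and it is set mostly by the OGT-KO library where a gene is high there. Closest to Itga6 were Itpr3, an inositol trisphosphate receptor of bile duct cells (distance 0.14), and the vesicle GTPase gene Rab31 (0.17). Closest to Cd44 were the myeloid chemokine gene Ccl6 (0.10) and the netrin receptor gene Unc5b (0.13). Ckb (0.11) and Lhfp (0.13) were nearest to Itgb3, Nrros (0.05), whose product handles latent TGF-beta in myeloid cells, and Ier5 (0.08) to Itga9, and Cep192 and Fem1b (0.06 each) to Itgav. Actr3, a subunit of the actin-nucleating Arp2/3 complex, and Sept7 (0.05 each) were nearest to Itgb1, Kdm2b and Gmfb (0.05 each) to Itga1, Zdhhc8 (0.04) and Ints2 (0.05) to Itga5, and Mdn1 and Rfk (0.04 each) to Itgb5. Within a distance of 0.15 there were 1 gene for Itga6, 2 for Cd44, 5 for Itgb3, 20 for Itgav and 36 for Itga9, against 265 for Itgb1 and 462 for Itgb5. Itga6, Itgb3 and Cd44 had 45 to 202 counts outside OGT-KO, and counting error alone adds to their distances. Their small numbers of close genes therefore cannot be read as a rare pattern.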

How the data were processed

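Messenger RNA libraries of 6 pools, 1 per group, were analysed. The deposited count table holds raw counts per Ensembl gene, and the authors' normalised table holds CPM, which equals the count over the library total in the 4 OGA libraries. In the OGT libraries its divisor is larger than the total of the deposited counts (20591467 against 20433100 in OGT-KO, and 21875596 against 21852873 in OGT control), for a reason not given in the sources used here. Per the submitters' processing notes, the tools were STAR, Subread and edgeR on the build mm39, and no versions are listed. The filter behind the 12027 rows is not given in the sources used here, so a gene that has no row is not analysed here. All values come from the counts, and the deposited CPM was not used for any ratio or test. Symbols for 12019 identifiers and exon lengths came from GENCODE M21, and promoters from RefSeq, both on GRCm38, so the positions printed are those of the promoter windows on that build, and none are given on mm39. Oga was matched through its older symbol.

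Ratios had a prior count of 2 and TMM sizes from edgeR 4.0.16 under R 4.3.3. The quasi-likelihood test had the line, the day and each knockout as terms, and took Benjamini-Hochberg adjusted p under 0.05 over 12026 genes. Alternatives were library totals, DESeq2 1.42.0, no filter, no line term, other priors, folds and minimum levels, and, chosen after seeing the data, a fit without OGA-KO at 28 days. Where a p is given, it rests on pools and not on single mice.

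The members, lists and tests were chosen with earlier results of these data known. Named were Ogt and Oga, all members, every other integrin subunit with a row, up to 6 genes of each other pathway list with the largest OGT-KO ratio, and the 2 genes most like each member. Further genes of the ligand, adaptor, linker and hyaluronan lists were named for their role after their values were seen. Marker lists are given as sums and counts, with up to 3 markers of a list named for the largest absolute OGT-KO ratio.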

Additional observations from a re-analysis of the deposited data

Results flagged for a closer look

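Itgb5 stood above its control in OGA-KO at 14 days (log2 0.10, 0.00 to 0.19) and below it at 28 days (log2 -0.20, -0.30 to -0.11), each beyond counting error and in opposite directions. The change between the times was -0.30 (-0.43 to -0.17) by counting error alone. With 1 pool at each time this difference was not tested against replicates, and the part of pool to pool variation in it was not tested.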

How the results depend on the processing

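With DESeq2 size factors or a prior count of 0.5 or 10, all 27 ratios of the 9 genes in the 3 pairs stayed within their counting interval. By library totals 19 stayed and 8, all in the OGT pair, moved up past it. The number of members at least 2-fold higher in the OGT pair was 5 of 9, where 16.4% of all genes with at least 1 CPM passed. It was 7 by library totals, 7 at 1.5-fold and 4 at 3-fold. The share of all genes was not counted at these 3 other settings, so these numbers cannot be read as particular to the members. Members risen in OGT-KO numbered 8 by edgeR, 7 without the line term, 6 by DESeq2 and 9 by library totals. In the same order, 3134, 1616, 1211 and 5334 of all genes rose, out of 12026 tested by edgeR and 11793 by DESeq2. Over all genes, the OGT-KO calls were 6332, 3035 without the line term and 2902 by DESeq2. The OGA-KO calls were 4, 0 without the line term (259 genes at an unadjusted p under 0.05), 36 by DESeq2, 2 in the 4 OGA libraries and 7 without OGA-KO at 28 days and the day term. The calls of the difference between the effects were 5301, 2766 without the line term and 2066 by DESeq2. The cause of these changes was not tested. Leaving out OGA-KO at 28 days left the fitted OGT-KO log2 effect at 4.23 for Itga6, 3.09 for Cd44 and 0.13 for Itgb5, since the OGT pair alone sets it. No paired analysis was possible because the labels carry no replicate numbers and each group is 1 library. Itga6, Itgb3 and Cd44 had 45 to 202 counts outside OGT-KO, which limits their OGA-KO ratios.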
